A study of Mus musculus with 23 samples.

Results

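The comparison described here set 8-cell mouse embryos without maternal and zygotic Nr5a2 against heterozygous embryos, by chromatin accessibility at sites bound by the NR5A2 protein. Its members were all autosomal regions of the table of bound regions, 16362 of 16958, with the 596 regions on sex chromosomes left out. They were measured in 21 of the 23 libraries of the series. The knockout group (mz_NrKO, where mz stands for maternal-zygotic) held 13 embryos and the heterozygote group (mz_NrHet) held 8 embryos. Each embryo was a library of its own, processed directly after collection at the 8-cell stage without culture or treatment, and all carried the same collection date. The assay was ATAC-seq, which reads open chromatin as the places where a transposase can insert adapters. The table holds 1 merged value for each group and region, in RPKM (reads scaled to the length counted and to library size), so no value of a single embryo was analysed here.

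The controls were heterozygotes, not wild type, and their labels do not say whether the egg had supplied Nr5a2, so the maternal and the zygotic share of any loss cannot be told apart. The strain, the driver of the deletion and the parents' genotypes are not given in the sources used here. A separate series of the same study, an inducible Nr5a2 knockout by its labels, is set beside many results. The genotype is labelled iNrKO_plus_Tam_NrKO in the treated pool and iNrKO_minus_Tam_Nrpp in the untreated pool. The embryos of this inducible series were cultured for 45 h from the early 2-cell stage. Of its pools, 1 received 750 nM 4-hydroxytamoxifen for 24 h while 1 was untreated. The inducible pools share no library with the maternal-zygotic groups.

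NR5A2 is an orphan nuclear receptor, a transcription factor that binds DNA as a monomer at an extended half-site with the letters AAGGTCA at its core. In mouse it is known for pluripotency and early embryo development, and in adult liver, pancreas and ovary for lipid, digestive enzyme and steroid genes. At the 8-cell stage the embryo prepares for compaction, when cells flatten against each other and the outer and inner lineages begin to separate.

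The sequences show what the bound sites near genes look like. No genome sequence was used, so only summits that fell inside a RefSeq promoter window (GRCm38.p6, the assembly of mm10, from 250 bases before to 50 after a start) could be read. The authors had recentred binding summits on an Nr5a2 motif, and 222 recentred summits lay far enough inside such a window. The core AAGGNCA, searched on both strands, lay at the summit in 65 of the 110 summits that had been moved (59.1%) and in 1 of the 112 that had not. It occurred anywhere in 6661 of 32851 listed promoters of the same length (20.3%). Below are 25 bases around the summit on the strand of the motif, credited to RefSeq, with the core in capitals. The first 6 are the summits with a core whose regions were lower in knockouts with the smallest p, shown as promoters with less signal in knockouts than in heterozygotes.
Khdc3: tgacttcAAGGCCAatctaatctca
Msrb1: taagatgAAGGCCAaacctatgcta
Rsad1: cctattcgttctcAAGGACAcagcc
Slc51a: tctccccAAGGCCAatggagtctat
Gm44867: aaggttaAAGGCCAttggggaaacc
Pramel4: tatctccaaattcAAGGCCAtctgg
The next 6 are the summits with a core whose ratio had the highest lower bound, shown as promoters without a visible loss.
Grwd1: attccccAAGGTCAcacgaaagaca
Strbp: cttggccAAGGTCAcacaaccggca
Castor1: gtccttcAAGGACAcgccccagaca
Adtrp: ccccggcAAGGTCAagccaggtctt
Borcs5: cttccccAAGGCCAaagatgtccaa
Dhcr7: cccgctgttgcccAAGGTCAgagcg

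Both sets were drawn from summits with the core and chosen by the values of the same comparison, which are therefore only described. The Khdc3 region had 16.4 RPKM in heterozygotes against 4.66 RPKM in knockouts, and the Msrb1 region had 18.8 and 6.10 RPKM. Khdc3 encodes a maternal-effect protein of the egg and Msrb1 a methionine sulfoxide reductase. The other 4 of the lower set went from 6.46 to 15.3 RPKM in heterozygotes and from 1.08 to 6.46 RPKM in knockouts, and did not pass the test. The second set rested on 3 to 28 heterozygote reads, with lower bounds of the ratio from 0.564 to 0.750, so a loss there is not excluded by depth. In it the Castor1 region, at the gene of an arginine sensor, had 16.4 and 17.2 RPKM, and the Dhcr7 region, at the gene of the last step of cholesterol synthesis, had 8.81 and 9.68 RPKM. The whole 250 bases before the start of Khdc3 (chr9:73102148-73102397, plus strand, GRCm38.p6) hold the core once, here on the opposite strand and in capitals, and they are printed because this is a promoter at a maternal-effect gene that lost accessibility.
Khdc3 promoter: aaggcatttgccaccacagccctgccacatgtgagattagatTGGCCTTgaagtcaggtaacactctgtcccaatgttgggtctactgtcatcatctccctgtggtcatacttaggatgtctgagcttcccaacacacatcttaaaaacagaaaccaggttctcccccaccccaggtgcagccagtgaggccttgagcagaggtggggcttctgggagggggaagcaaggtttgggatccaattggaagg

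Over all 222 promoter summits the knockout values were lower where the core sat at the summit. The 66 regions with the core there had a mean of 8.03 RPKM in heterozygotes against 5.64 RPKM in knockouts, a ratio of the sums of 0.702 (95% interval 0.641 to 0.768). The 156 regions without it had 12.9 and 10.5 RPKM, a ratio of 0.813 (0.778 to 0.851). The inducible ratios, treated over untreated, were 0.836 (0.779 to 0.898) and 0.894 (0.861 to 0.928), whose intervals overlap. Regions with the core also had less signal to begin with, and the part of this in the difference was not tested.

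The fifth letter of the core also went with different ratios among these promoter summits, a split chosen after the sequences above had been seen. The 31 regions with AAGGCCA had 8.43 RPKM in heterozygotes against 5.30 RPKM in knockouts, a ratio of 0.628 (0.550 to 0.718). The 30 regions with AAGGTCA had 7.75 and 6.05 RPKM, a ratio of 0.780 (0.683 to 0.892). These intervals overlap, so the difference is not shown beyond counting error in this comparison. Inducible ratios were 0.763 (0.687 to 0.847) and 0.933 (0.840 to 1.04), in the same order and again with overlapping intervals. AAGGCCA occurs in 6.20% and AAGGTCA in 4.72% of all listed promoters.

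The targeted gene was examined first. Of the 4 autosomal regions within 50 kb of the Nr5a2 gene, none lay inside it, so the table cannot show the deletion itself. The 4 regions lay 12.4 to 24.3 kb outside the gene. The highest (chr1:136972880-136973314) had 20.0 RPKM in heterozygotes against 15.8 RPKM in knockouts, and the region nearest to it had 7.64 and 4.30 RPKM. The other two had 9.40 and 8.61 RPKM, and 5.87 and 6.46 RPKM. Summed over the 4 regions the ratio was 0.820 (0.599 to 1.13), the inducible ratio was 1.11 (0.862 to 1.43), and none passed the test.

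Across the genome, most bound regions had less signal in knockouts, few losses were large enough to be seen region by region, and gains were rare. Knockout RPKM was below heterozygote RPKM in 64.1% of the autosomal regions (10489 of 16362). Summed over these regions, knockout RPKM was 0.671 times heterozygote RPKM (95% interval 0.666 to 0.677). The median region had a log2 ratio of −0.31, taken as log2(RPKM + 1), so changes of low regions are understated. By a two-sided exact binomial test on the reads behind the RPKM values, adjusted by Benjamini-Hochberg over the 16958 regions of the table with a threshold of 0.05, 284 autosomal regions were lower (1.74%) and 4 were higher (0.0244%). The test compares 2 merged libraries, not the conditions, and like every interval here it covers counting error only. A lower value can come from fewer cells with an open site or from a site open less often in each cell, which cannot be told apart.

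The median region held 4 reads in each column, so depth limited which regions could be called. A region without a read in heterozygotes was seen 2057 times (12.6%) and in knockouts 1474 times (9.01%). A count of 0 allows up to 3 reads, equal to 1.76 RPKM in heterozygotes against 1.08 RPKM in knockouts. In the 3049 regions with 20 or more reads, where a ratio could be read with more confidence, 323 (10.6%) had a ratio under 0.333 and 1247 (40.9%) lay between 0.333 and 0.667. A further 939 regions (30.8%) lay between 0.667 and 1, 393 (12.9%) between 1 and 1.5, and 147 (4.82%) at 1.5 or more. Partial loss was therefore the most frequent class among well-covered regions.

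**Figure D1:**
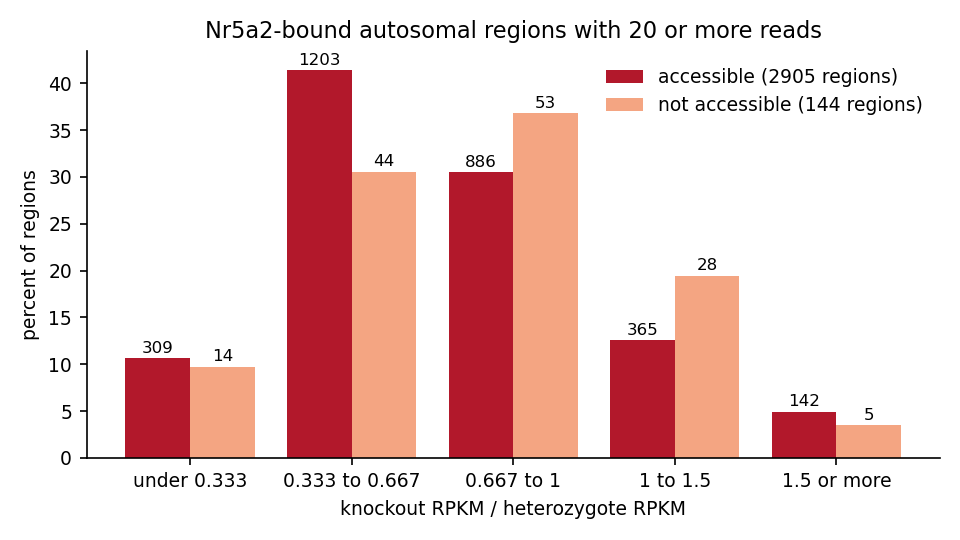
Percent of autosomal regions with 20 or more reads (vertical axis) in each class of the ratio of knockout over heterozygote RPKM (horizontal axis), for regions the authors classed as accessible (dark) and not accessible (light). Numbers above the bars are regions; the highest dark bar, 1203 regions, is the class from 0.333 to 0.667, and the highest light bar, 53 regions, is the class from 0.667 to 1.

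The 7938 regions that the authors classed as accessible lost more than the 8424 that they classed as not accessible. Accessible regions had a mean of 5.58 RPKM in heterozygotes against 3.64 RPKM in knockouts, a ratio of 0.653 (0.646 to 0.659), and 248 of them were lower and 4 higher by the exact binomial test. Regions classed as not accessible went from 1.49 to 1.10 RPKM, a ratio of 0.737 (0.724 to 0.750), with 36 lower. Inducible ratios were 0.696 and 0.702. Relative to the inducible ratio, the maternal-zygotic ratio was therefore 0.938 (0.927 to 0.950) in accessible regions and 1.05 (1.03 to 1.07) in the others, by an exact conditional interval on the 4 read counts.

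Regions that passed the test had lost most of their signal. Their median fell from 10.6 to 1.79 RPKM, with a median ratio of 0.174, and 26 had no knockout read. These values were chosen by the test and so describe only its members. In the inducible pools, which the choice did not use, 266 of the 284 had less signal with treatment, against 74.2% of all autosomal regions. Of them 67 were called lower there, against 6.28% of all, and their median inducible ratio was 0.527 against 0.683 over all regions. The 2 sides are not of like depth, since the heterozygote median was 10.6 RPKM in the 284 and 2.35 RPKM over all autosomal regions. The part of depth in these contrasts was not tested. Lower signal in the merged knockout thus went with lower signal in the treated pool at most of these sites, and because the regions were chosen by the first ratio, the sizes of both cannot be compared.

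Regions close to a transcription start kept more of their accessibility than distant ones. Distances were taken to the nearest start listed by RefSeq, which lists one for 79.6% of autosomal protein-coding genes and none for the 449 regions of 1 chromosome, left out here. The 240 accessible regions under 250 bp from a start had a mean of 12.2 RPKM in heterozygotes against 9.74 RPKM in knockouts, a ratio of 0.801 (0.772 to 0.832). The ratio was 0.770 (0.739 to 0.802) at 250 bp to 1 kb, 0.656 (0.638 to 0.675) at 1 to 5 kb and 0.634 (0.622 to 0.646) at 5 to 20 kb. It was 0.615 (0.601 to 0.628) at 20 to 50 kb and 0.633 (0.620 to 0.647) farther out. The step thus lay near 1 kb, and beyond 5 kb the ratio moved little. The inducible ratios had the same order up to 50 kb and were higher throughout, from 0.893 (0.866 to 0.921) under 250 bp to 0.681 (0.671 to 0.692) at 20 to 50 kb.

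**Figure D2:**
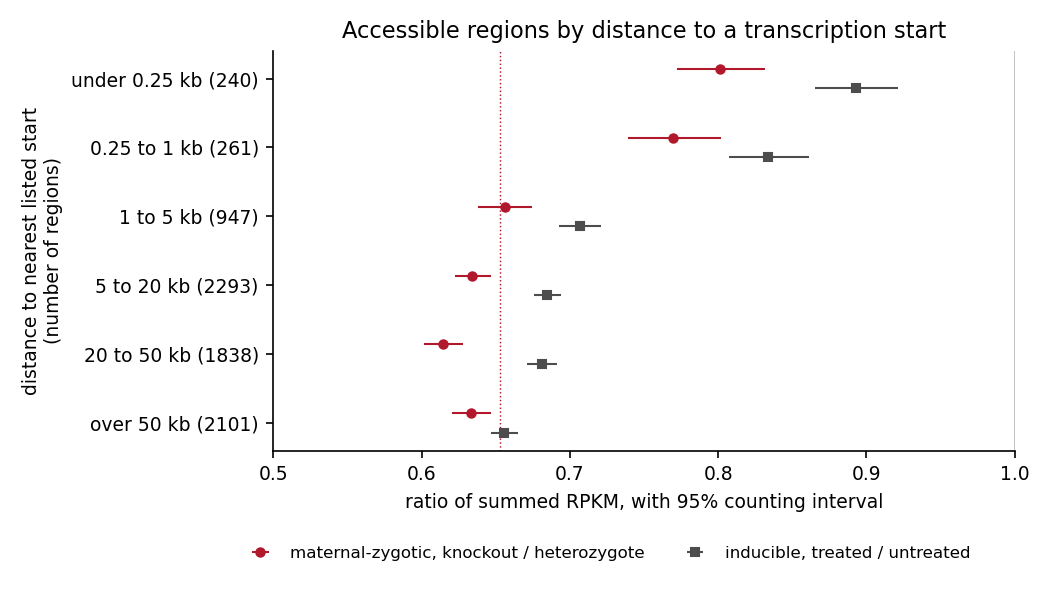
Ratio of summed RPKM (horizontal axis) of accessible autosomal regions by distance to the nearest listed transcription start (vertical axis, with the number of regions), for knockout over heterozygote (circles) and for treated over untreated in the inducible series (squares). Bars are 95% intervals for counting error, the dotted line is the ratio over all accessible regions, 0.653, and the 2 classes under 1 kb lie to its right with intervals that do not reach it.

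The difference by distance was also seen among regions of like signal in the untreated inducible pool. Accessible regions were split into 5 groups by their RPKM in the untreated inducible pool, a value outside this comparison. In each of the 5 groups the ratio was higher under 1 kb than farther away. It was 0.924 (0.809 to 1.06) against 0.650 (0.630 to 0.670) in the weakest group and 0.786 (0.760 to 0.812) against 0.643 (0.631 to 0.655) in the strongest. In the second group, with 0.709 (0.630 to 0.798) against 0.638 (0.620 to 0.656), the intervals overlapped. Heterozygote signal was not equal within the groups and was higher under 1 kb in each of the 5. Its mean was 3.79 RPKM against 2.67 RPKM farther away in the weakest group, and 15.5 against 10.2 RPKM in the strongest. Of the accessible regions under 1 kb, 1.20% were called lower, against 3.29% of those at 1 kb or more.

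Splits by strength of NR5A2 binding and by recentred summit moved the ratio less than the limit of 1 kb did, on both sides of it. Under 1 kb, accessible regions with CUT&RUN signal at or above the median had a ratio of 0.772 (0.744 to 0.801), and those below it 0.806 (0.774 to 0.840). CUT&RUN is an antibody-directed cleavage assay that maps where a protein is bound. At 1 kb or more the ratios were 0.623 (0.615 to 0.631) and 0.656 (0.643 to 0.670). For summits moved onto a motif the ratio was 0.774 (0.745 to 0.804) under 1 kb, against 0.800 (0.770 to 0.832) for those not moved. The same pair farther away was 0.625 (0.618 to 0.633) and 0.673 (0.655 to 0.693). Farther than 1 kb, both the stronger binding and the moved summits thus went with lower ratios beyond counting error, and under 1 kb the intervals overlapped.

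In the classes given here, other features went with smaller differences than distance from a start did. Accessible regions inside a gene had a ratio of 0.656 and those outside 0.649. Regions with no neighbour within 5 kb had 0.652 (0.644 to 0.659), those with 1 had 0.649 (0.635 to 0.664) and the 162 regions with more had 0.709 (0.670 to 0.750), higher beyond counting error. Strong, close-set regions at Sfi1 fall in or beside that class, such as those with 27.0 and 44.1 RPKM or 48.8 and 36.9 RPKM. Its ratio without Sfi1 was not taken, so a link with neighbours is not shown. From the narrowest to the widest group of regions the ratios lay between 0.638 and 0.670. By the distance between the motif-centred summit and the summit of accessibility, the ratio was 0.641 under 25 bp, 0.611 at 25 to 50 bp, 0.648 at 50 to 100 bp and 0.683 at 200 to 400 bp. Values at 100 to 200 bp and at 400 bp or more are not reported here.

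The promoter regions with the most signal in the untreated inducible pool are given as examples. They were picked by that pool and not by the maternal-zygotic values. Of the 12 highest accessible regions under 250 bp from a start, none passed the exact binomial test, as against 2 of all 240 (0.833%), so a count of 0 says little here. Their ratios went from 0.623 to 1.74. The region at Gsk3b, the gene of a kinase of WNT and insulin signalling, had 32.3 RPKM in heterozygotes against 28.3 RPKM in knockouts. The region at Cnot3, a subunit of the main mRNA deadenylase, had 28.2 and 24.7 RPKM. Usp20, a deubiquitinase gene, had 21.1 and 20.1 RPKM at its region. Ratios whose unadjusted intervals lay below 1 were seen at Lin52, a subunit of the DREAM and MuvB complexes of cell cycle genes, with 32.9 and 22.2 RPKM (0.463 to 0.988), and at Mtrf1l, a mitochondrial release factor gene, with 28.2 and 17.6 RPKM (0.410 to 0.948). Values above 1 were seen at Ubxn6, a cofactor of the VCP segregase, with 16.4 and 23.7 RPKM, and at Gpr155, with 14.7 and 17.9 RPKM. The highest ratio was at Mt1, with 11.7 and 20.4 RPKM and an unadjusted interval above 1 (1.03 to 3.06). In the inducible pools the Mt1 region went the other way, from 11.1 RPKM without to 5.96 RPKM with treatment. Of all 240 regions of this class, 177 (73.8%) had less signal in knockouts.

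Chromosomes differed by more than their counting intervals. Over accessible regions the ratio was lowest on chromosome 8, at 0.584 (0.558 to 0.611), and on chromosome 1, at 0.594 (0.570 to 0.619). The highest was 0.765 (0.728 to 0.804) on chromosome 13. Chromosome 13 also had the smallest share of accessible regions called lower, 1.39%, and chromosome 8 the largest, 4.69%. Chromosome 8 was again lowest in the inducible pools, at 0.654 (0.634 to 0.676), while chromosome 13 had 0.730 (0.705 to 0.755). Chromosome 15 had 0.613 (0.583 to 0.645) in the maternal-zygotic comparison and the highest inducible ratio, 0.775 (0.748 to 0.802). Whether the embryos differed in chromosome copy number was not tested.

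**Figure D3:**
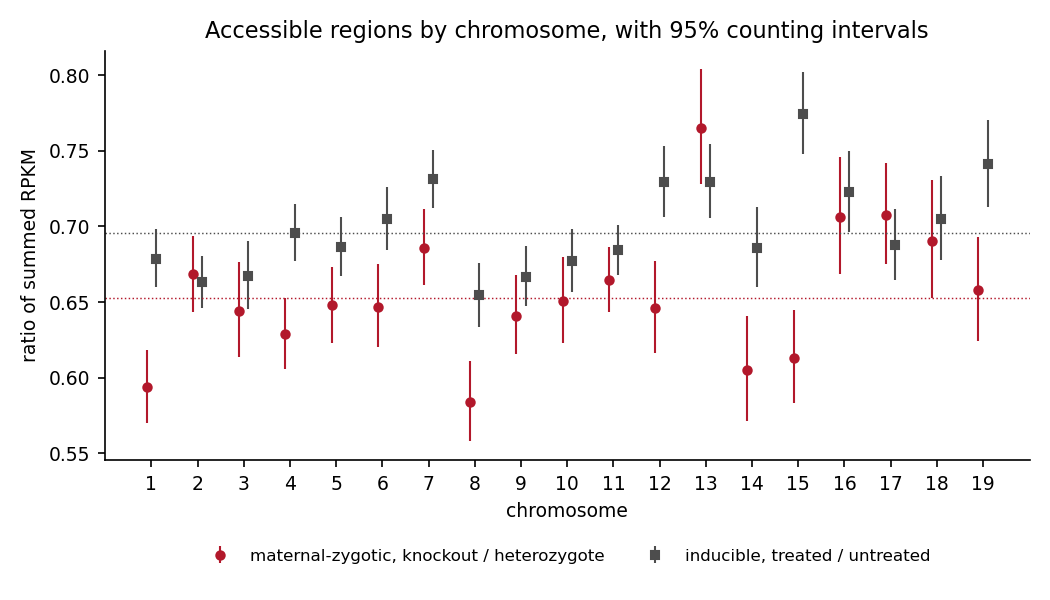
Ratio of summed RPKM of accessible regions (vertical axis) on each of the 19 autosomes (horizontal axis), for knockout over heterozygote (circles) and treated over untreated in the inducible series (squares), with 95% intervals for counting error; dotted lines are the ratios over all autosomes. Chromosome 13 stands highest among the circles, at 0.765, and chromosome 8 lowest, at 0.584.

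To gain reads, regions were summed by locus, that is, over all autosomal regions within 50 kb of the protein-coding gene nearest to them. This gave 7829 loci from 14942 regions, and 4255 loci held a single region. By the exact binomial test with adjustment over all loci, 430 were lower (5.49%) and 5 were higher (0.0639%). Of the 430, 225 held no region that was called by itself. The locus is a position, and whether these regions act on the named gene was not measured. Loci with more reads were called more often: of the 700 loci with 30 or more heterozygote reads, 208 (29.7%) were lower.

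Of the 462 loci with 5 or more regions, 95 (20.6%) were lower. In 61 of the 462 every region had less signal in knockouts, so most of these loci held at least 1 region that did not. In the inducible pools, 413 of the 430 lower loci had less signal with treatment, against 78.7% of all loci. Of them 184 (42.8%) were called lower there, against 14.9% of all. The lower loci held more reads, since 208 of the 430 had 30 or more heterozygote reads, against 700 of all 7829 loci. The part of depth in these contrasts was not tested. The 20 lower loci with the smallest p held 87 regions, of which 79 had less signal in knockouts, 26 were called one by one and 45 lay inside the gene. Their inducible ratios were under 1 in 19 of 20 loci, and 11 were called lower there.

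The 20 loci are described one by one, and no theme over them was tested. At Mfge8, a secreted protein that binds phosphatidylserine and integrins, both regions, 15.7 and 41.5 kb outside the gene, had little signal left. They had 11.7 and 14.7 RPKM in heterozygotes and 1.79 and 1.43 RPKM in knockouts, a summed ratio of 0.122 (0.0525 to 0.253, exact binomial test, adjusted p = 1.24e-07). At Hs6st1, an enzyme that adds sulfate to heparan sulfate and so shapes FGF binding, the 3 regions had 20.6, 5.29 and 4.70 RPKM in heterozygotes and 2.51, 2.15 and 1.43 RPKM in knockouts. The summed ratio there was 0.200 (0.108 to 0.351), and the inducible ratio was 0.376 (0.265 to 0.527). Both series thus lost signal at Hs6st1, while at Mfge8 the inducible ratio was 0.689 (0.448 to 1.05).

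At Lif, the gene of a cytokine that sustains mouse embryonic stem cells, 4 of 5 regions had less signal. The highest (chr11:4278742-4279266, 6.23 kb outside the gene) fell from 18.2 to 3.95 RPKM (exact binomial test over regions, adjusted p = 0.00195), and the region inside the gene had 2.35 and 2.87 RPKM. At Wipf2, a partner of the actin regulator N-WASP, and at Whamm, an activator of the Arp2/3 complex, all regions had less signal. The 6 Wipf2 regions summed to 31.7 RPKM in heterozygotes against 6.46 RPKM in knockouts, a ratio of 0.204 (0.112 to 0.352). The 2 Whamm regions summed to 15.3 and 1.08 RPKM, a ratio of 0.0704 (0.0136 to 0.230) that rested on 26 and 3 reads. The inducible ratios were 0.542 (0.381 to 0.762) at Wipf2 and 0.695 (0.279 to 1.65) at Whamm.

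At Hes1, a repressor controlled by Notch signalling, the regions 11.8 and 14.4 kb outside the gene fell from 9.40 to 1.43 RPKM (exact binomial test over regions, adjusted p = 0.024) and from 19.4 to 2.51 RPKM. The remaining 2 regions had 0 and 1.76 RPKM in heterozygotes and 1.08 and 1.43 RPKM in knockouts, so the loss lay in one pair of neighbours. At Thap4, a protein with a THAP zinc finger and a nitrobindin-like domain, all 7 regions had less signal, from 45.8 to 12.9 RPKM in sum (ratio 0.282, 0.184 to 0.423). All 6 regions at Msi2, an RNA-binding protein of stem cells, had less signal as well, from 18.2 to 2.87 RPKM in sum.

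The Nol4l locus held the most sites among the 20 lost loci. Of its 11 regions 10 had less signal, the sum went from 64.0 to 28.3 RPKM (ratio 0.442, 0.327 to 0.597), and the inducible ratio was 0.441 (0.347 to 0.557). The losses there were uneven. A region inside the gene (chr2:153500637-153500886) had 6.46 RPKM in heterozygotes and no knockout read, while the region 0.641 kb outside it had 1.76 and 1.79 RPKM.

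At Got1, the cytosolic aspartate aminotransferase of the malate-aspartate shuttle, 1 of the 2 strong regions passed the test. The region inside the gene fell from 37.6 to 6.81 RPKM (exact binomial test over regions, adjusted p = 9.23e-09), while the region at its start, 0.016 kb away, had 25.8 and 16.1 RPKM and did not pass. At Pank3, a kinase of coenzyme A synthesis, 5 of 6 regions had less signal and the sum went from 39.4 to 12.6 RPKM. At Dnajc11, a chaperone of the mitochondrial inner membrane organising system, the sum over 3 regions went from 39.9 to 10.4 RPKM, with an inducible ratio of 0.855 (0.576 to 1.26). At Pank3 the region inside the gene had 17.0 and 2.51 RPKM, while a region 30.3 kb away had 5.29 and 4.66 RPKM, so sites within a locus differed in how much they kept.

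The remaining lost loci lay at Gm38664, Tbc1d24, Hmgxb4, Kif19a, Trim39, Tmem131, Klf5 and Dcaf5. At Kif19a, a kinesin, the sum went from 13.5 to 0.717 RPKM on 23 and 2 reads, with an inducible ratio of 0.799 (0.443 to 1.42), and at Tmem131 a single region went from 11.7 to 0.359 RPKM on 20 and 1 reads. At Gm38664 the sum went from 42.3 to 12.9 RPKM, while the inducible ratio was 1.03 (0.740 to 1.43). With the columns scaled so that the summed ratio over autosomal regions was 1, 16 of the 20 loci stayed lower, and Pank3, Nol4l, Klf5 and Lif did not. With only regions within 10 kb of the gene, 14 of the 17 loci that still had a region stayed lower, and Gm38664, Klf5 and Dcaf5 did not.

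**Figure D4:**
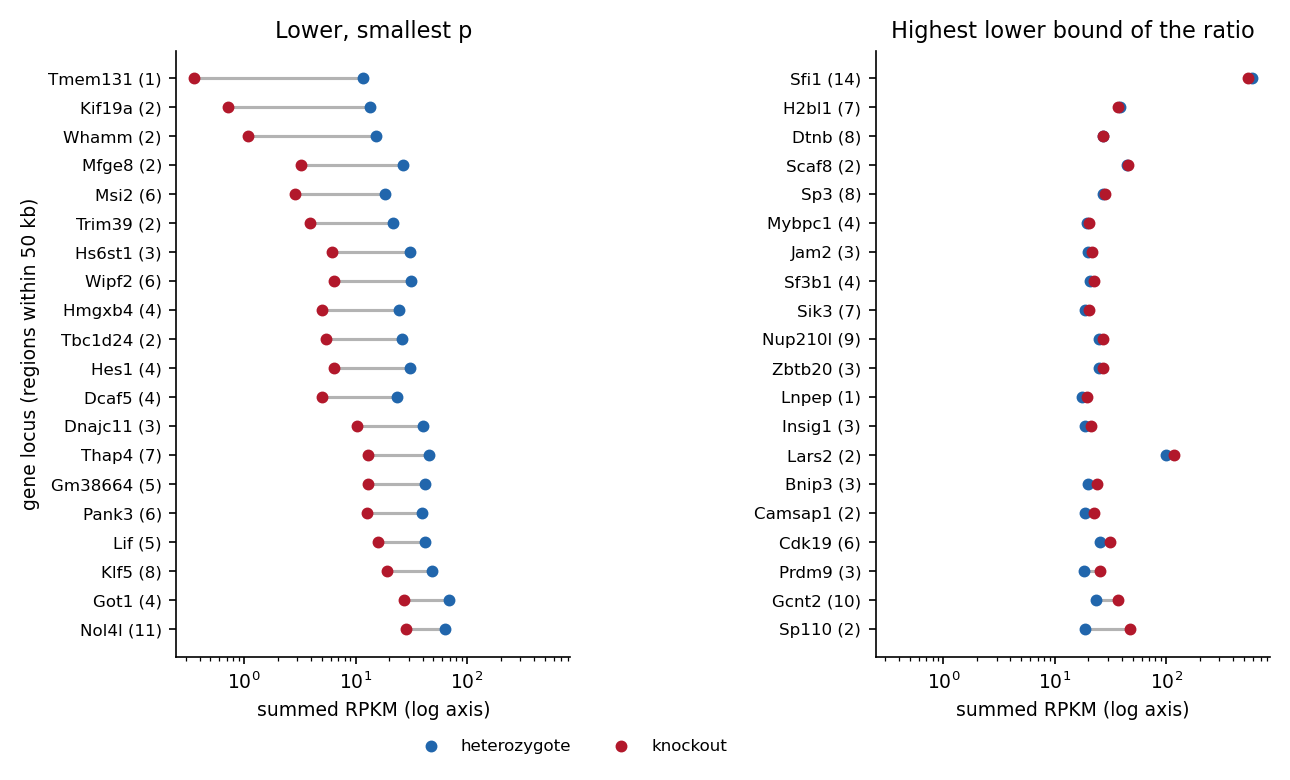
Summed RPKM (horizontal log axis) of the 20 lower gene loci with the smallest p (left) and of the 20 loci with the highest lower bound of the ratio among those with 30 or more heterozygote reads (right), in heterozygotes (blue) and knockouts (red), sorted by ratio, with the number of regions in brackets. On the left all red points lie left of the blue ones, and on the right they lie close together or, at Sp110 and Gcnt2, to the right.

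Some single sites had no knockout read at all. Regions near Mgat3, a glycosyltransferase gene, and inside Irak2, a kinase of interleukin-1 and Toll-like receptor signalling, had 9.99 RPKM each in heterozygotes, from 17 reads each, and 0 in knockouts (exact binomial test, adjusted p = 0.000106 for each). In the inducible pools the Irak2 region went from 2.94 RPKM without to 0.851 RPKM with treatment, and the Mgat3 region from 3.75 to 2.04 RPKM. Regions inside Lemd1, inside Kif9 and 60.2 kb from Gm536 had 7.05 RPKM each and 0. The other members of this group of 10, inside Foxn3 and Nol4l and near Ywhaq, Lrrc74a and Fcgrt, had 5.87 or 6.46 RPKM and 0. All 10 were thus sites of moderate signal, and a count of 0 still allows 1.08 RPKM.

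The loci with the highest lower bound of the ratio, called kept here, were of 2 kinds, a few with very high signal and many of ordinary strength. Among the 700 loci with 30 or more heterozygote reads, 23 had a 95% interval of the ratio wholly above 0.667. The 20 with the highest lower bound had ratios from 0.926 to 2.50, and 18 were above 1. They were chosen by these values, which are a description. Inducible ratios were under 1 in 16 of the 20, against 78.7% of all loci, and 3 were called lower in those pools, against 14.9% of all. The 20 held 30 or more heterozygote reads each, while the median over all loci was 7. A share over loci of like depth was not taken, so these counts cannot be called near or far from the background.

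An increase that passed the test lay at Sp110, a nuclear body gene whose span overlaps that of its relative Sp140. Both regions there went from 9.40 RPKM in heterozygotes to 24.0 and 23.0 RPKM in knockouts, in sum from 18.8 to 47.0 RPKM (ratio 2.50, 1.69 to 3.80, exact binomial test, adjusted p = 0.000149). The inducible ratio was 1.24 (1.02 to 1.50). Genes of this family have near-identical copies in mouse, so the origin of these reads is uncertain. At Gcnt2, the enzyme that branches I-antigen glycans, 7 of 10 regions had more signal and the sum was 23.5 and 36.9 RPKM (ratio 1.57, 1.08 to 2.33), which did not pass the test (exact binomial test, adjusted p = 0.133). The inducible ratio at Gcnt2 was 0.697 (0.556 to 0.871), in the other direction.

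At Lars2, a mitochondrial leucyl-tRNA synthetase, 1 region inside the gene (chr9:123461803-123462169) held nearly all the signal, with 96.3 RPKM in heterozygotes against 113 RPKM in knockouts. At Sfi1, a centrosome protein, 14 regions summed to 585 and 542 RPKM (ratio 0.926, 0.854 to 1.00). The sites there were uneven: the strongest fell from 101 to 53.4 RPKM and another from 81.7 to 52.0 RPKM, while others had 55.8 and 57.0 RPKM or 27.0 and 44.1 RPKM without passing. How reads map at regions of such signal was not tested. Relative to the shared loss, with the summed ratio scaled to 1, the loci of Sp110, Gcnt2, Lars2 and Sfi1 passed the test as higher.

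Among kept loci of ordinary strength, Prdm9, a histone methyltransferase that places meiotic recombination, had 18.2 and 25.5 RPKM. Cdk19, a kinase of the Mediator complex, had 25.3 and 31.6 RPKM over 6 regions inside the gene. Its 2 strong regions had 11.2 and 11.5 RPKM, and 11.7 and 13.6 RPKM. Bnip3, a mitophagy receptor, had 20.0 and 23.7 RPKM, and the region 0.284 kb from its start 11.2 and 12.2 RPKM. Insig1, a brake on sterol synthesis, had 18.8 and 21.2 RPKM. Sf3b1, a core splicing factor, had 20.6 and 22.2 RPKM. Sp3, a zinc finger transcription factor, had 27.0 and 28.3 RPKM over 8 regions. None of these differences passed the test. Their intervals, such as 0.720 to 1.54 at Sp3, lay above the overall ratio of 0.671, but the loci were chosen by that lower bound. With the summed ratio scaled to 1, these loci did not pass as higher either. Adjusted p went from 0.0704 at Prdm9 to 0.426 at Sf3b1 (exact binomial test), so a smaller loss than the shared one is not shown for them.

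Of the 4 regions called higher, 2 were those at Sp110. A region 0.555 kb from the start of Tnfaip8l2, a negative regulator of immune receptor signalling, had no heterozygote read and 6.10 RPKM in knockouts, from 17 reads (exact binomial test, adjusted p = 0.0384). In the inducible pools it had 2.45 and 3.91 RPKM, so a signal was present there without the knockout. A region 3.21 kb from Tmpo, a gene of nuclear lamina proteins, had 1.17 and 8.61 RPKM (exact binomial test, adjusted p = 0.0496), with 5.22 and 3.06 RPKM in the inducible pools. As loci, Gp6, a platelet collagen receptor gene, with 0.587 and 7.53 RPKM, and Crlf2, a cytokine receptor gene, with 2.35 and 10.4 RPKM, also rose, on 1 and 4 heterozygote reads. The last of the 5 higher loci was Ptpn2, a tyrosine phosphatase gene, with 7.64 and 20.1 RPKM.

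The authors' deposited classes of change, which combine both series, overlapped in part with these calls. In the authors' deposited table, autosomal regions numbering 6727 were classed as down, 6853 as unchanged and 2782 as up. Their maternal-zygotic ratios were 0.394, 0.842 and 3.08, values that the classes used. In the class called up, 1550 regions (55.7%) had no heterozygote read, and the inducible ratio was 0.931. Of its 2782 regions 1070 had more signal in the knockout column of both series, and 4 were called higher by the exact binomial test here. Of the 284 regions lower here, 269 were in the class called down, 14 in the unchanged class and 1 in the class called up.

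Gene lists were described by the regions within 50 kb of their members, beside the autosomal ratio of 0.671 and the shares of 1.74% of regions and 5.49% of loci called lower. Over 15 lists and 6 gene families, ratios went from 0.537 to 1.04. The lowest were at oocyte and maternal-effect genes, DNA replication and repair genes, energy metabolism genes and transcription factors of the 8-cell embryo and morula. The highest were at 2-cell stage genes and spindle genes. The inducible ratios lay closer together, from 0.672 to 0.918.

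**Figure D5:**
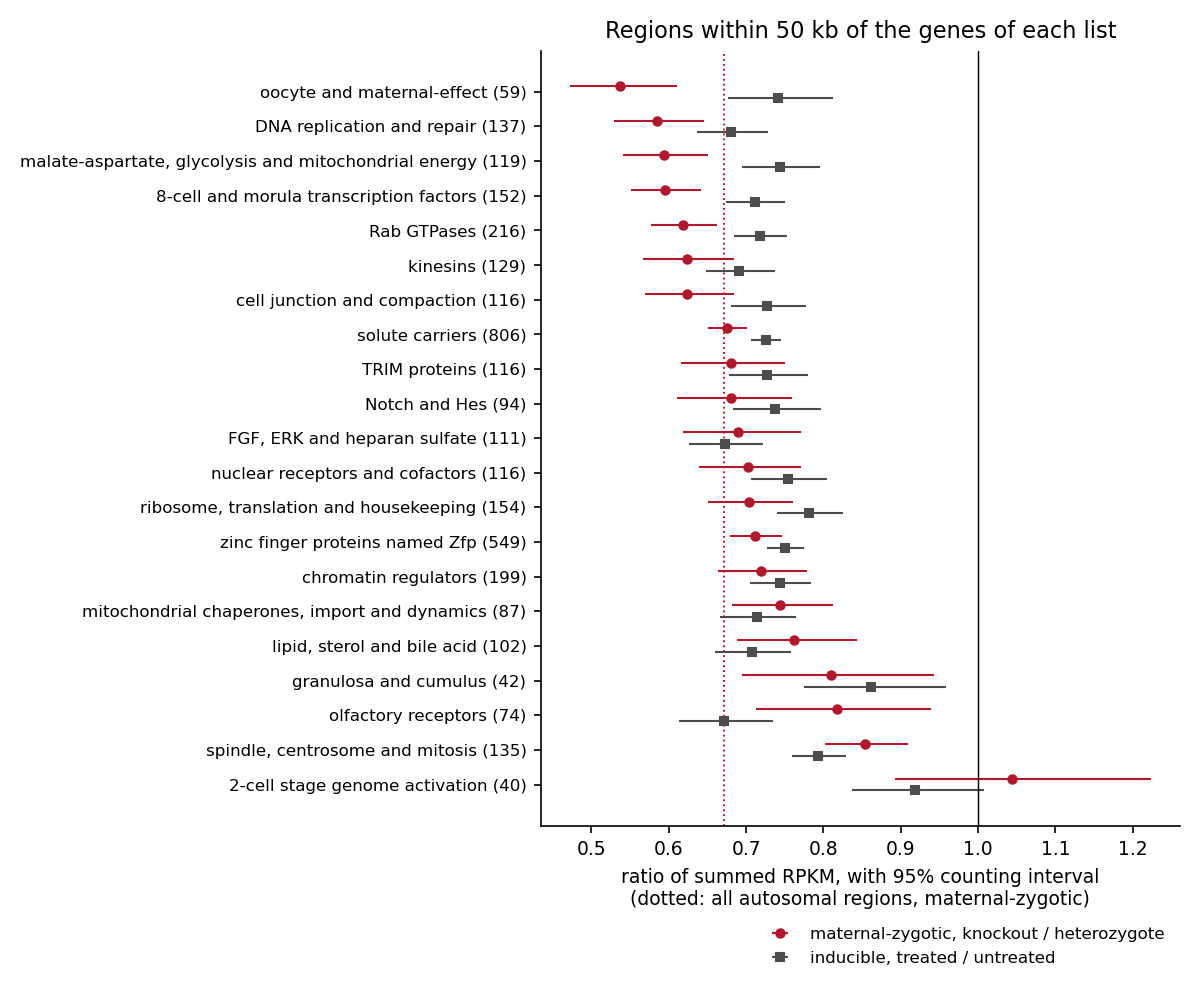
Ratio of summed RPKM (horizontal axis) of the regions within 50 kb of the genes of each list or family (vertical axis, with the number of regions), for knockout over heterozygote (circles) and treated over untreated in the inducible series (squares), with 95% intervals for counting error. The dotted line marks 0.671, the ratio over all autosomal regions; the oocyte list lies lowest, at 0.537, and the 2-cell list highest, at 1.04.

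Transcription factors of the 8-cell embryo and morula had losses at many loci. Their 152 regions had a ratio of 0.595 (0.551 to 0.642) and a median log2 ratio of −0.67 against −0.31 over all autosomal regions. By locus, 9 of 30 were lower and none higher, and 27 had less signal. These loci held more reads than most: of the 16 with 30 or more heterozygote reads 8 were lower, against 29.7% of all such loci. Counting only regions within 10 kb, the ratio was 0.548.

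Among them, Klf5 and Klf4 encode related zinc finger factors of pluripotency. At Klf5, 7 of 8 regions had less signal and the sum went from 48.8 to 19.0 RPKM (ratio 0.390, 0.271 to 0.557, exact binomial test, adjusted p = 3.04e-05). The lost signal was mostly in distal sites, with 14.7 and 3.59 RPKM at 33.5 kb and 8.81 and 2.51 RPKM at 42.2 kb from the gene. At Klf4, all 7 regions had less signal, with a sum of 20.6 and 4.30 RPKM (ratio 0.209, 0.0989 to 0.413). The inducible ratio at Klf4 was 0.426 (0.308 to 0.582), so loss was present in both series.

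Nanog, a pluripotency factor, and Dppa3, a maternal factor that protects DNA methylation, lie near each other on chromosome 6, together with the glucose transporter gene Slc2a3. At Nanog the highest region, 4.59 kb outside the gene (chr6:122702607-122702900), had 18.8 and 7.89 RPKM, and the locus went from 24.7 to 10.4 RPKM. At Dppa3 the 2 highest regions had 22.9 and 10.0 RPKM, and 11.7 and 2.51 RPKM. At Slc2a3 the 6 regions summed to 21.7 and 8.25 RPKM. The 3 neighbouring loci were thus all lower, with ratios of 0.422, 0.421 and 0.380. Their inducible ratios were 0.685 (0.462 to 1.01), 0.955 (0.730 to 1.25) and 0.510 (0.349 to 0.736).

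Further factors of this list, some of the outer lineage, were also lower. Tead1, the DNA-binding partner of YAP, had 3 regions inside the gene with 8.22, 3.52 and 6.46 RPKM in heterozygotes and 2.15, 1.43 and 2.87 RPKM in knockouts (ratio 0.354, exact binomial test over loci, adjusted p = 0.0131). Elf3, an epithelial ETS factor, went from 19.4 to 6.81 RPKM. Cdx2, the trophectoderm factor, had a single region with 6.46 and 0.717 RPKM, and Id2, an inhibitor of helix-loop-helix factors, a single region with 23.5 and 10.4 RPKM. At Klf9 the sum went from 42.9 to 24.0 RPKM, where a region 8.47 kb outside the gene fell from 11.2 to 1.79 RPKM and 3 others had ratios of 0.916 to 0.977. Regions inside the Klf9 gene had 7.05 and 1.43 RPKM, and 2.35 and 0.359 RPKM. Outside it, a region at 44.3 kb had 5.87 and 3.59 RPKM, and one at 6.89 kb was higher in knockouts, with 2.35 and 3.59 RPKM. The Cdx2 value rested on 11 and 2 reads, and its inducible ratio was 0.968 (0.419 to 2.22).

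Energy metabolism genes had a ratio of 0.593 (0.541 to 0.651) over 119 regions, with 4 of 21 loci lower. Besides Got1 and Slc2a3 these were Slc2a1, another glucose transporter, and Pdhb, a subunit of pyruvate dehydrogenase. Both of these loci went from 8.81 to 2.15 RPKM on 15 and 6 reads. The inducible ratio was 0.328 (0.150 to 0.660) at Slc2a1 and 1.24 (0.717 to 2.14) at Pdhb. The list's median log2 ratio was −0.41.

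Genes of cell junctions and compaction had a ratio of 0.624 (0.569 to 0.684) over 116 regions, with 3 of 23 loci lower. Pard3, a scaffold of the apical polarity complex, had less signal in all 4 regions, with a sum of 30.0 and 11.8 RPKM. F11r, a junctional adhesion molecule, went from 16.4 to 6.10 RPKM, with an inducible ratio of 0.881 (0.590 to 1.31). Myh10, a non-muscle myosin heavy chain, went from 20.0 to 7.89 RPKM. The region of the list with the most heterozygote signal, near the adhesion gene Nectin2, had 27.6 and 24.7 RPKM and did not pass.

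The lowest ratio of the lists stood at oocyte and maternal-effect genes, 0.537 (0.472 to 0.611) over 59 regions, and an inducible ratio of 0.741 (0.676 to 0.812). By locus 3 of 16 were lower, namely Dppa3, Figla and Khdc3. Dppa3 is also counted in the list of 8-cell and morula transcription factors above. Figla, an oocyte transcription factor gene, rested on 1 region 20.5 kb away with 11.2 and 1.79 RPKM. Khdc3 rested on the promoter region printed above, and its inducible ratio was 0.463 (0.240 to 0.857). Without the regions of Dppa3, the member with the most reads, the list's ratio was 0.565.

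Signalling genes stood near the autosomal ratio as groups. FGF, ERK and heparan sulfate genes had a ratio of 0.690 (0.618 to 0.770), with 2 of 27 loci lower. These were Hs6st1 and Ndst1, both enzymes that sulfate heparan sulfate, and Ndst1 went from 13.5 to 4.66 RPKM. Notch and Hes genes had 0.681 (0.610 to 0.759), with 2 of 22 loci lower. These were Hes1 and Lfng, a glycosyltransferase of the Notch receptor, which went from 8.81 to 2.15 RPKM. The region near Nrarp, a feedback inhibitor of Notch and the highest of that list, had 25.8 and 24.0 RPKM.

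Nuclear receptors and cofactors had a ratio of 0.702 (0.640 to 0.771), with 2 of 28 loci lower. Among the lower loci Rxra, the shared partner of many nuclear receptors, went from 33.5 to 15.4 RPKM, with one region, 6.93 kb outside the gene, at 11.2 and 2.15 RPKM. Lipid, sterol and bile acid genes had a ratio of 0.762 (0.688 to 0.843). Of their 17 loci Acacb, an acetyl-CoA carboxylase, and Apob, the main protein of low-density lipoprotein, were lower, with 31.7 and 16.5 RPKM and with 12.3 and 3.95 RPKM.

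DNA replication and repair genes had a ratio of 0.585 (0.530 to 0.645) over 137 regions, of which 5 were lower. By locus 1 of 19 was lower, a share near that over all loci, and 0 of the 5 with 30 or more heterozygote reads. The region of this list with the most heterozygote signal, near Mcm2, a subunit of the replicative helicase, had 24.1 and 16.5 RPKM and did not pass. Chromatin regulators had a ratio of 0.719 (0.664 to 0.779), and none of 34 loci passed the exact binomial test in either direction. The locus with the smallest p there was Kmt2c, a histone H3 methyltransferase, with 9.99 and 3.23 RPKM (exact binomial test, adjusted p = 0.0848). A stronger region within 50 kb of Kmt2c, the highest of this list, was not part of that locus. It had 24.7 and 17.2 RPKM and did not pass. Ribosome, translation and housekeeping genes had 0.703 (0.650 to 0.760), with Polr1a, the largest subunit of RNA polymerase I, as the 1 lower locus of 23.

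Spindle, centrosome and mitosis genes had a ratio of 0.854 (0.802 to 0.909), and none of 29 loci was called lower or higher. Of these loci 2 had 30 or more heterozygote reads. The ratio depended on Sfi1, since without its regions it was 0.747 (0.674 to 0.827). Pcnt, a centrosome scaffold, had 20.6 and 10.0 RPKM (exact binomial test, adjusted p = 0.0766). Kif11, the motor that separates spindle poles, had 4.11 and 10.0 RPKM (exact binomial test, adjusted p = 0.217). Mitochondrial chaperones, import and dynamics genes likewise had 0.744 (0.682 to 0.812) with Lars2 and 0.649 (0.587 to 0.716) without it.

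Genes of the 2-cell stage had a ratio of 1.04 (0.892 to 1.22) over 40 regions, with 2 regions higher and 1 lower, which turned to 0.830 (0.695 to 0.992) without Sp110. Counting only regions within 10 kb, it was 1.53. Apart from Sp110, no locus of the 12 passed the exact binomial test. The smallest p for a loss was at Obox6, a homeobox gene, with 11.2 and 4.30 RPKM (exact binomial test, adjusted p = 0.0959). Regions at granulosa and cumulus genes, the cells that surround the egg, had a ratio of 0.809 (0.695 to 0.943) over 42 regions with none called, and mean signal of 4.21 RPKM in heterozygotes against 3.41 RPKM in knockouts. Whether such cells were present was not tested.

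Among gene families the ratios went from 0.618 to 0.818. The family of Rab GTPases, which direct vesicle traffic, had a ratio of 0.618 (0.577 to 0.663) with 9 of 216 regions and 4 of 41 loci lower. As taken here it also held Rab11fip2, which is not itself a GTPase. Kinesins had 0.623 (0.567 to 0.684) with 4 of 21 loci lower, Kif19a among them. Solute carriers had 0.675 (0.650 to 0.701) with 8 of 172 loci lower, led by Slc4a1, an anion exchanger, with 27.0 and 7.17 RPKM. TRIM proteins had 0.680 (0.616 to 0.751) with 2 of 26 loci lower, led by Trim39, a ubiquitin ligase, with 21.7 and 3.95 RPKM. Zinc finger genes named Zfp had 0.712 (0.679 to 0.747), and Zfp217, which went from 22.9 to 9.32 RPKM, led their 2 lower loci of 147. Olfactory receptor genes had 0.818 (0.713 to 0.939) with no locus of 30 called and a median log2 ratio of 0.

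All counts of calls above depend on the scaling of the 2 columns, because the loss was shared by most regions. With the columns rescaled by the median region, a log2 shift of −0.31, 55 regions were lower and 7 higher, and 103 loci were lower and 9 higher. With the summed ratio scaled to 1, 15 regions were lower and 12 higher, and 29 loci were lower and 16 higher. Only regions bound by NR5A2 are listed, so whether other open chromatin shared the loss was not tested.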

How the data were processed

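ATAC-seq RPKM values were used as the authors deposited them, 1 merged column per group, together with the CUT&RUN RPKM. The deposited ratio columns and classes were the authors' own, and summit positions and coordinates came from the same table. Cutadapt, Bowtie2, MACS2 and mm10 are named per the submitters' processing notes, and for versions, settings, read shifting, duplicate removal and merging nothing is given in the sources used here. If duplicates were kept, they would make the intervals too narrow, and merging by reads would weight embryos by depth.

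RPKM values came in whole multiples of one step (0.587 for heterozygotes, 0.359 for knockouts) within 0.001 of a step, in 100% of values, so reads were recovered by division. The test on read counts was the exact binomial, two-sided, with Benjamini-Hochberg adjustment, and ratios have Clopper-Pearson 95% intervals (scipy 1.17.1, Python 3.11.15). On simulated data without a shared loss, 64% of the 50 loci lowered to 0.1-fold and 36% of the 50 lowered to 0.25-fold were called among 7829 loci, and 8% and 4% of the 50 regions of each kind among 16958 regions.

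The members, lists and rules were chosen with earlier results of these data known. Named loci were the 20 lower with the smallest p and, among those with 30 or more heterozygote reads, the 20 with the highest lower bound. Single regions were the 10 lower with the smallest p, the 10 without a knockout read and the most heterozygote reads, and the 10 with the highest lower bound. In lists they were the locus with the smallest p in each direction and the region with the most heterozygote signal. Other genes named as lower or higher among 5 or fewer in a list, the regions at promoters and the remaining examples were chosen after their values were seen. Some results that passed the rule are not reported here.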

Additional observations from a re-analysis of the deposited data

Results flagged for a closer look

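At 2 of the named loci the maternal-zygotic and the inducible ratio differed by an exact test of the difference, adjusted over all loci. At Mfge8 the maternal-zygotic ratio was 0.179 times the inducible one (0.0688 to 0.424, adjusted p = 0.0388, exact conditional test). At Gm38664 it was 0.297 times the inducible one (0.172 to 0.509, adjusted p = 0.0188, exact conditional test). Over all 7829 loci 4 passed this test, and 463 (5.91%) had an unadjusted p under 0.05. Both loci were named for their loss in the maternal-zygotic comparison, which favours a low ratio there, and the test covers counting error between merged libraries only.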

How the results depend on the processing

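No paired analysis was possible because the columns are merged over embryos and carry no replicate numbers, and for the same reason no replicate could be left out. Scaling moved the counts of calls most: 284 lower regions became 55 with the median log2 ratio at 0 and 15 with the summed ratio at 1, and 4 higher became 7 and 12. For loci, 430 lower became 103 and 29, and 5 higher became 9 and 16. Other settings kept these counts within 1.5 times. The ratio of accessible regions, 0.653, was 0.719 as 2 to the median log2 ratio and 0.644 without regions of mean RPKM over 20, and 0.737 for regions not accessible was 0.892 as 2 to the median. The median log2 ratio of accessible regions went from −0.48 to −0.70 and −0.64 with pseudocounts of 0.01 and 0.1 RPKM, and that of the others to −0.23 and −0.22. Within 10 kb, the ratio was 0.548 for 8-cell and morula factors, 1.53 for 2-cell genes and 0.582 for TRIM proteins. Leaving out the member with the most reads gave 0.649 for mitochondrial chaperones, 0.747 for spindle genes and 0.830 for 2-cell genes, where the direction turned. That alternative, the start-distance alternatives and the limit of 20 RPKM for counts of calls and for the difference between series were chosen after seeing the data. The contrast between accessible regions under and over 1 kb from a start was 0.32 in log2 as ratios of sums, 0.34 without regions over 20 RPKM and 0.19 as medians. Depth limits single regions most: with 4 reads a column at the median, a region without a call is not shown to be unchanged.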
